A study of Homo sapiens with 16 samples.

Results

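Gene bodies were compared between Kasumi-1 cells treated for 24 h with 500 nM dTAG-47 and untreated cells of the same tagged line. Kasumi-1, an established line of acute myeloid leukaemia, has the RUNX1-RUNX1T1 fusion gene. PRO-seq, a nuclear run-on assay, reads out RNA polymerases engaged on each gene, so that the reads over a gene body report transcription at that moment rather than stored RNA. In both groups FKBP12F36V was joined to SMARCA5 on each allele, a degron that dTAG-47 couples to the ubiquitin system, and the controls received no dTAG-47. The comparison takes 7 of the 16 samples of the series, 2 treated for 24 h and 5 untreated, and all 10286 gene symbols of the deposited table, each represented by 1 transcript. The labels speak of biological replicates and do not say whether the libraries came from separate cultures or how many clones the tagged line represents, so p-values measure the spread between these libraries, which may be technical.

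SMARCA5 is the ATPase of the ISWI chromatin remodellers, which slide nucleosomes along DNA and set their even spacing. Together with subunits such as BAZ1A, RSF1 or BPTF it forms several complexes, and arrays of regularly spaced nucleosomes around CTCF sites and downstream of start sites depend on this activity. The comparison therefore asks which gene bodies held more or fewer polymerases, relative to all other genes, after 24 h of dTAG-47 in tagged cells. No sample is labelled as untagged cells given dTAG-47 or as tagged cells kept for 24 h without it. Effects of the compound or of time in culture cannot be told apart from those of SMARCA5 loss.

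Both 24 h libraries carry the same number code in their column names as 2 of the untreated libraries. Libraries with 1 code are called a run here, although the sources do not say what the code stands for. Run 2 held the 24 h libraries and 2 untreated ones, run 1 held 2 untreated libraries and run 3 held 1. Gene-body totals were 12251127 and 13146389 reads at 24 h, 16138846 and 11199143 in untreated cells of run 2, and 17526557 to 30537369 in the other untreated libraries. The untreated pair of run 1 stood apart: its 2 libraries differed by a median SD of 0.127 log2 units per gene, against 0.0485 for the untreated pair of run 2 and 0.0593 for the 24 h pair. With the run as a block in the model, the size of each change comes from run 2. Of the other runs only the pair of run 1 adds to the estimate of spread, since the 1 library of run 3 is fitted by its own run term. Of 8 myeloid progenitor markers, 6 were listed (KIT, CD34, CD33, MPO, SPI1 and CEBPA). Their summed level was 4602 to 5762 CPM in untreated cells and 5336 to 5397 at 24 h. KIT alone held 3177 to 4410 CPM in untreated cells and 3680 to 3690 at 24 h, so the sum mainly follows KIT. Of these markers KIT fell, and CD34 and CD33 rose. RUNX1T1 and CD38 were not listed, and of the 4 markers each for B, T, megakaryocytic, monocytic and fibroblast cells 0 were listed.

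SMARCA5 itself (chromosome 4, 144434616 to 144478642, hg19) did not pass the test. Its gene body held 89.2 and 105 CPM at 24 h (gene-body counts scaled for library size), 98.7 and 102 in untreated cells of run 2, 148 and 119 in run 1 and 101 in run 3. On the log2 scale the change was -0.047 ± 0.12 (SE), with an adjusted p of 0.812. The tag acts on the protein, so these levels do not measure how much SMARCA5 was lost.

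Over the whole table, 1077 genes rose (10.5% of those tested) and 976 fell (9.49%), 2053 in all (20%; edgeR quasi-likelihood test, run as a block, Benjamini-Hochberg adjusted p under 0.05). The changes were mostly small, with a median absolute log2 fold change of 0.49 among called genes. Of the called genes 220 changed by more than 2-fold, 123 of them upward and 97 downward. Over all 10286 genes, both 24 h libraries lay above all 5 untreated ones for 1821 (17.7%) and below them for 1746 (17%), with no test. Such separation is thus common, and the genes named below were mostly chosen by their change in these same counts. Libraries were scaled on these same counts, so a change shared by most genes is removed and the near balance of rises and falls says nothing about total transcription. Within run 2 alone, 2280 rose and 2359 fell (45.1% of 10281), and all 2053 genes were among them with the same direction. The run block takes its fold changes from run 2 too, so this agreement was nearly fixed by the design. Without both untreated libraries of run 1 the count was 4646. Leaving out either library of run 1 kept all 1077 and 976 calls, and leaving out that of run 3 kept 1052 and 954. Calls were thus lost mainly without a run 2 library. Leaving out 1 of the 4 libraries of run 2 gave 477 (24 h A) to 542 (24 h B). Of the risen genes 176 and of the fallen genes 172 kept their call in each of the 7 fits that left out 1 library.

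**Figure D1:**
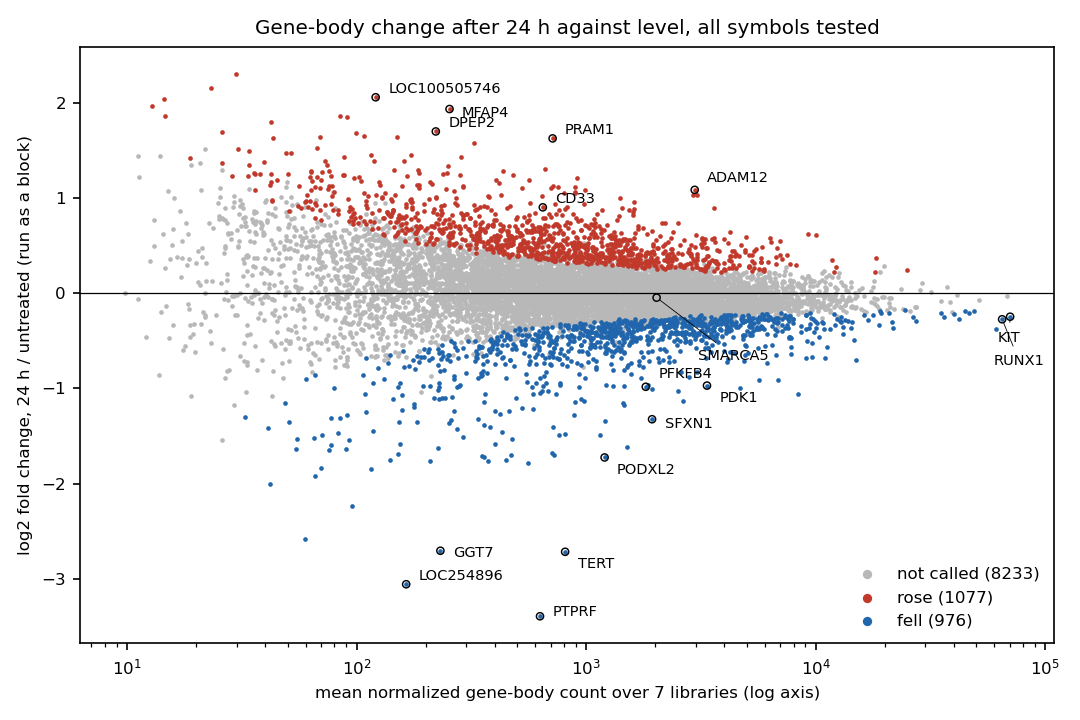
Log2 fold change of each gene body at 24 h against untreated cells (vertical axis) by the mean normalized count over the 7 libraries (horizontal, log axis), with called genes in colour and named genes ringed. PTPRF, LOC254896, TERT and GGT7 lie below all other genes with a mean of at least 100, and SMARCA5 lies near 0.

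The deepest falls were those of PTPRF, LOC254896, TERT and GGT7. PTPRF, a receptor-type tyrosine phosphatase (chromosome 1, 43996547 to 44089343), held 38.6 and 41.6 CPM in untreated cells of run 2, 42.8 and 51.7 in run 1 and 54.5 in run 3, and 3.62 and 4.0 at 24 h. TERT, the catalytic subunit of telomerase (chromosome 5, 1253287 to 1295162), held 52.4 and 57.9 CPM in run 2, 48.6 and 65.2 in run 1 and 63.9 in run 3, and 8.71 and 8.07 at 24 h. GGT7, of the gamma-glutamyltransferase family (chromosome 20, 33432523 to 33460661), went from 11.2 and 12.2 CPM in run 2 (18.5 to 22.4 in the other runs) to 1.81 and 1.77. In each of these genes both treated libraries lay far below all 5 untreated ones, whatever the run. Log2 fold changes were -3.39 ± 0.16 for PTPRF (adjusted p = 1.62e-06), -2.72 ± 0.17 for TERT (8.33e-06) and -2.71 ± 0.22 for GGT7 (3.27e-05; SE throughout). LOC254896, a locus named only by number, fell by 3.06 ± 0.25, from 9.53 to 14.6 CPM over the untreated libraries to 0.986 and 1.38.

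Further large falls covered several kinds of protein. RASL10B, a Ras-like GTPase, fell from 33.2 and 35.3 CPM in run 2 (34.1 to 47.1 elsewhere) to 9.53 and 10.4, a change of -1.78 ± 0.14. PODXL2, a sialomucin of the CD34 family, fell from 76.0 and 80.2 CPM (79.0 to 87.2 elsewhere) to 23.3 and 23.9, a change of -1.73 ± 0.10 with an adjusted p of 8.33e-06. CDK18, a PCTAIRE-family kinase, fell from 24.5 and 24.0 CPM (32.0 to 39.3 elsewhere) to 6.41 and 7.99. All of these were separated from every untreated library, as in the plot of levels by library. SFXN1, a mitochondrial serine transporter, fell by 1.32 ± 0.084 and ACTL8, an actin-like protein, by 1.49 ± 0.097, both with an adjusted p of 9.66e-06. C7orf31 (-1.76), FJX1 (-1.76), FAM69B (-1.76), FAM59B (-1.72) and SH2D3A, an SH2-domain adaptor (-1.85), completed the 12 largest falls once genes whose normalized count averaged under 100 were left out. Each gene of this and the preceding paragraph kept its call without any single library, and FJX1, FAM69B, FAM59B and SH2D3A missed the threshold in a fit with no run term (adjusted p = 0.0532 to 0.0693).

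Large rises included PRAM1, DPEP2, SASH3 and LAPTM5. PRAM1, an adaptor protein of myeloid cells (chromosome 19, 8554940 to 8567538), held 23.3 and 22.9 CPM in untreated cells of run 2, 28.0 and 35.9 in run 1 and 16 in run 3, and 70.8 and 71.9 at 24 h. DPEP2, a membrane dipeptidase (chromosome 16, 68021293 to 68033364), held 5.93 and 8.23 CPM in run 2, 7.68 and 9.81 in run 1 and 6.24 in run 3, and 22.5 and 22.9 at 24 h. SASH3, a signalling adaptor of lymphoid cells, held 4.22 to 8.34 CPM untreated and 14.8 and 14.4 at 24 h. The treated libraries of these 3 genes lay above every untreated library. Log2 fold changes were 1.63 ± 0.13 for PRAM1 (adjusted p = 3.27e-05), 1.70 ± 0.20 for DPEP2 (2.76e-04) and 1.39 ± 0.18 for SASH3 (5.24e-04), and each call survived the omission of any library. LAPTM5, a lysosomal membrane protein of blood cells, rose by 1.30 ± 0.13, from 23.9 and 19.3 CPM in run 2 (23.8 to 39.7 elsewhere) to 55.1 and 52.2. The 5 rises with the smallest adjusted p were PRAM1, DNAJC1, an endoplasmic reticulum co-chaperone (1.04 ± 0.077), ATP10D, a lipid flippase (1.03 ± 0.086), PLXNA4, a semaphorin receptor (0.90 ± 0.080), and ADAM12, a metalloprotease (1.09 ± 0.098). With no run term DNAJC1 (adjusted p = 0.0525), LAPTM5 (0.0928), PLXNA4 (0.119) and ATP10D (0.258) were not called, while PRAM1, DPEP2, SASH3 and ADAM12 were.

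Several of the largest rises by fold rested on low untreated values in run 2 that the other runs did not share. MFAP4, a microfibril-associated protein, rose by 1.93 ± 0.22, from 4.90 and 4.63 CPM in run 2 to 19.2 and 17.4, but it held 14.6 and 21.8 in untreated cells of run 1 and 13.1 in run 3. CMPK2, a mitochondrial nucleotide kinase inducible by interferon, rose by 1.43 ± 0.16, from 6.26 and 7.59 CPM to 18.7 and 18.3, against 23.3 and 22.7 in run 1 and 10.1 in run 3. ZNRD1, a subunit of RNA polymerase I, rose by 1.64 ± 0.21, from 3.10 and 4.07 CPM to 11.3 and 10.8, against 7.2 to 10.2 in the other untreated libraries. In these genes the treated libraries overlapped or lay close to untreated libraries of another run, and in a fit with no run term they were not called (adjusted p = 0.533, 0.685 and 0.418), nor was MRFAP1L1 (1.66; adjusted p = 0.567). LOC100505746 (2.06) is listed inside the span of ITGB2, a leukocyte integrin subunit that also rose (0.62 ± 0.14), and MFAP4 overlaps the end of MAPK7, which rose as well (0.81). FBXO24 (1.45) overlaps LOC100129845, which fell (-0.58). MAPK7, LOC100129845 and ITGB2 lost their calls without any 1 library of run 2 (adjusted p = 0.0545 to 0.270). Without the counted strand, the reads of such pairs cannot be assigned to 1 gene. The other large rises were LOC728743 (1.57), HINT2 (1.45) and OBFC2B, a single-stranded DNA-binding protein (1.39), which lost its call without untreated library A of run 2. With no run term HINT2 (adjusted p = 0.104), FBXO24 (0.0679) and OBFC2B (0.0519) were not called, while LOC728743 and LOC100505746 were.

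**Figure D2:**
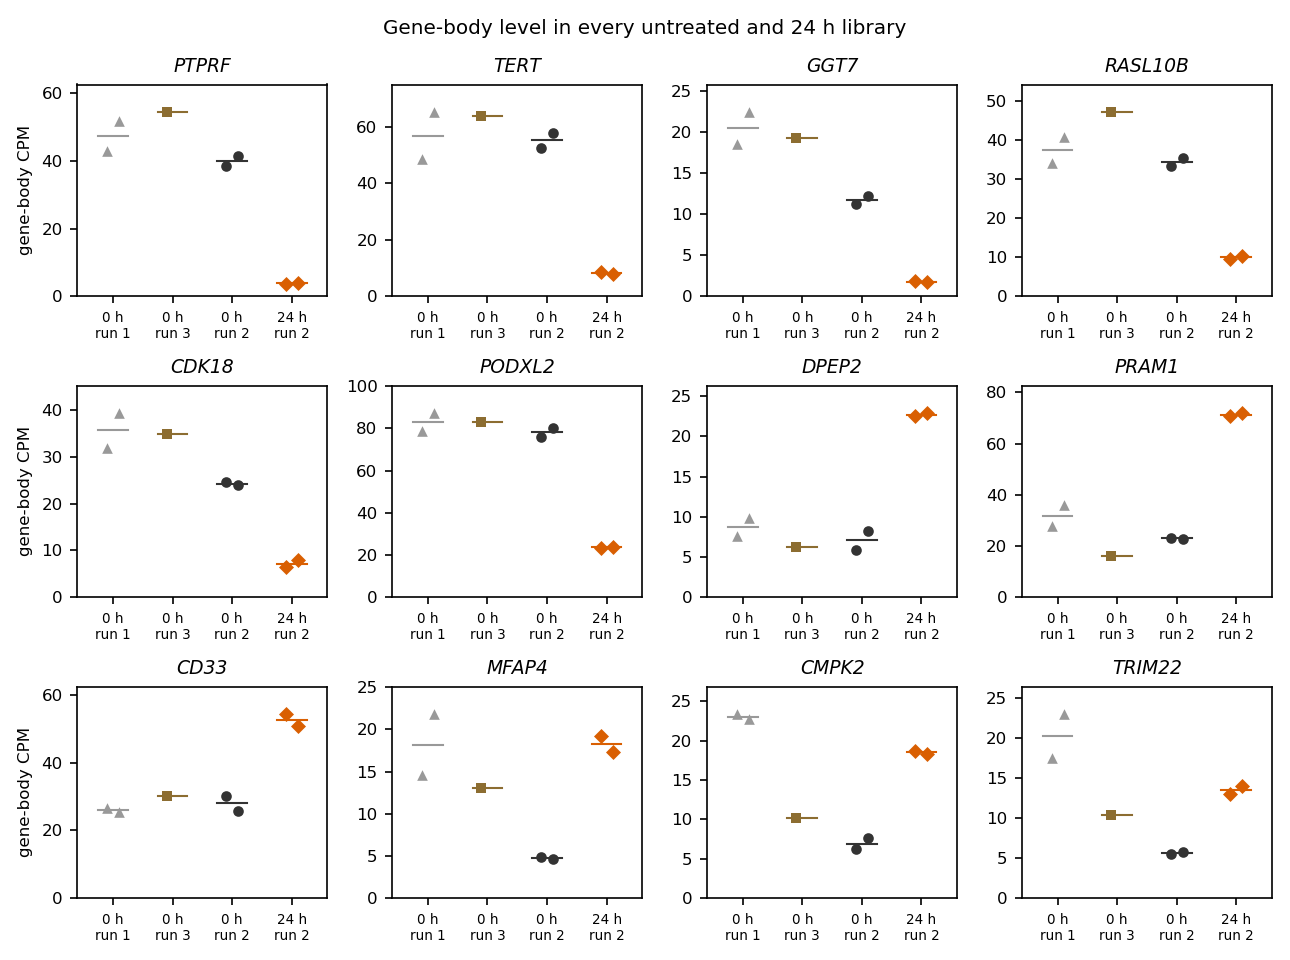
Gene-body CPM (vertical axis from 0, own scale per gene) in every untreated library of runs 1, 3 and 2 and in both 24 h libraries (points, with bars for the mean of each run and time). PTPRF, TERT, GGT7, RASL10B, CDK18 and PODXL2 are lower and DPEP2, PRAM1 and CD33 higher at 24 h than in all 5 untreated libraries, whereas for MFAP4, CMPK2 and TRIM22 untreated libraries of run 1 reach or exceed the 24 h level.

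Run 2 also held libraries of 2 h and 6 h, which allowed a test of 24 h against 6 h (all of these share their untreated libraries, so the values are set side by side). Here 635 genes were higher (6.17% of those tested) and 320 lower (3.11%) at 24 h than at 6 h, 955 in all (9.29%). The count fell to 192 without 6 h library A, 258 without 6 h B, 414 without 24 h A and 604 without 24 h B, and rose to 1645 and 1647 without either 2 h library. Changes against untreated cells and against 6 h passed in the same direction for 212 risen and 89 fallen genes. DPEP2 held 9.13 and 9.12 CPM at 6 h and 22.5 and 22.9 at 24 h (24 h against 6 h: 1.31, adjusted p = 5.93e-06). PRAM1 went from 38.8 and 39.1 at 6 h to 70.8 and 71.9 (0.87, adjusted p = 8.49e-07). C7orf31 held 21.4 and 21.1 CPM at 2 h, 12.1 and 15.9 at 6 h and 5.67 and 8.22 at 24 h, and its further fall after 6 h (-1.01, adjusted p = 6.49e-04) is visible in the plot of levels over time. These 3 changes passed without each of the 8 libraries in turn, as did those of DNAJC1 (0.33), ADAM12 (0.68) and PLXNA4 (0.61).

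The falls of PTPRF and TERT had begun by 2 h. PTPRF held 7.47 and 8.90 CPM at 2 h and 4.52 and 4.74 at 6 h, and its 24 h level did not differ from that of 6 h by the test (-0.28, adjusted p = 0.422). TERT stepped down through 25.3 and 33.5 CPM at 2 h and 14.5 and 11.6 at 6 h to 8.71 and 8.07, and the last step passed (-0.63, adjusted p = 0.0218) but not without 6 h library A (0.277), 24 h A (0.0908) or 24 h B (0.129). LOC254896 (-1.14), OGDHL, a relative of the 2-oxoglutarate dehydrogenase (-0.83), ALDH1L2, a mitochondrial folate enzyme (-0.53), and LOC283335 (-0.52) were also lower than at 6 h, and each lost that call without at least 3 of the 8 libraries (largest adjusted p = 0.240, 0.139, 0.346 and 0.205). The calls of MFAP4 (0.74) and LAPTM5 (0.47) were lost without 6 h library A alone (adjusted p = 0.0798 and 0.0543), and those of LOC100505746 (0.82) and SASH3 (0.50) without 3 and 6 of the 8 libraries (largest 0.142 and 0.301).

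**Figure D3:**
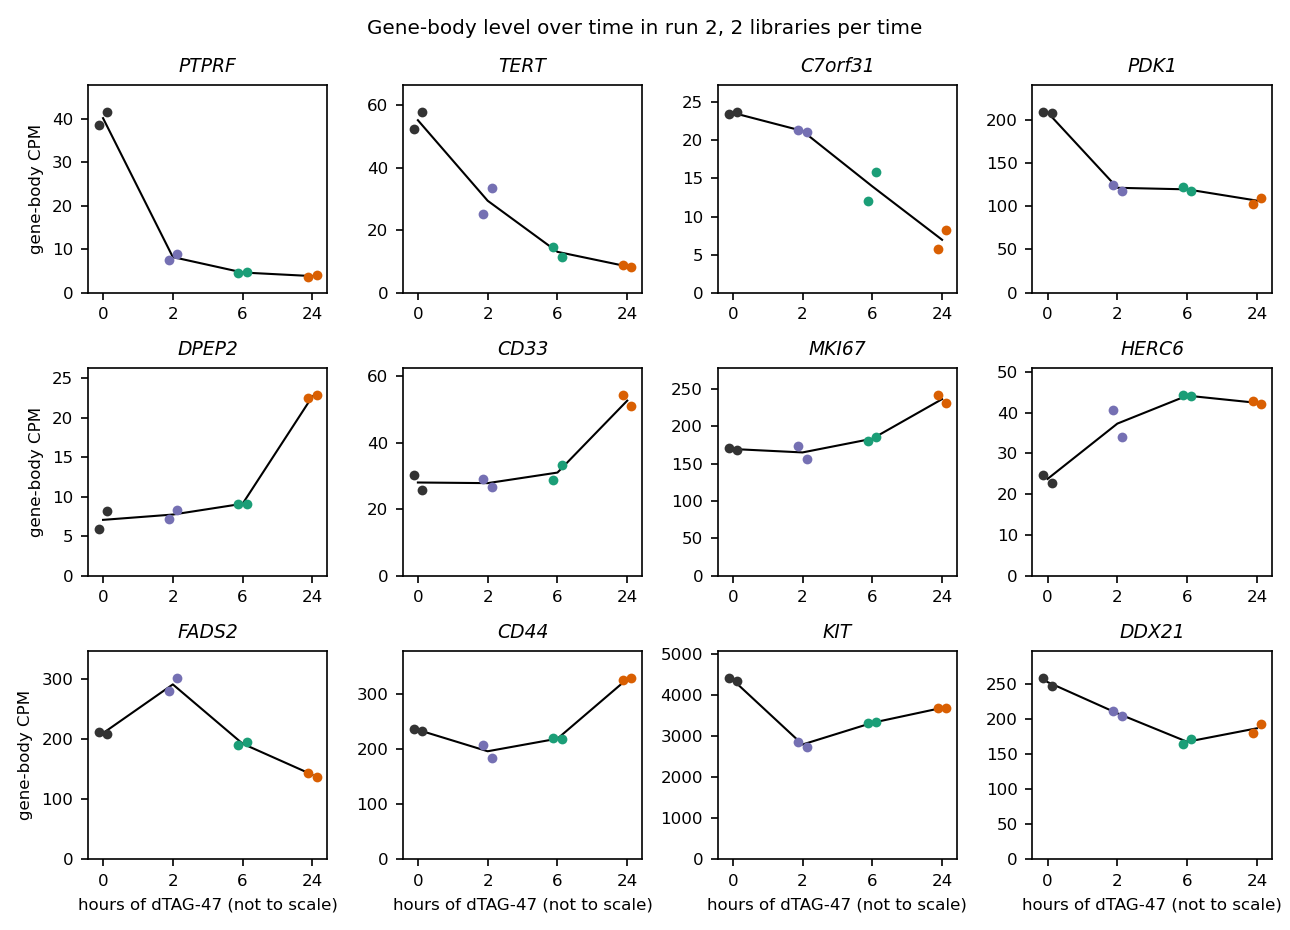
Gene-body CPM in each library of run 2 (points, 2 per time) at 0, 2, 6 and 24 h of dTAG-47, with lines through the means, vertical axes from 0 and times not to scale. PTPRF and PDK1 were low from 2 h on, DPEP2, CD33, MKI67 and CD44 stood higher at 24 h than at 6 h, and FADS2 was highest at 2 h and lowest at 24 h.

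Gene lists are described by counts of called members beside the shares over all genes (10.5% rose, 9.49% fell; median log2 fold change 0.0068), with no test of the list. Falls outnumbered rises among genes of glycolysis and of the hypoxia response. Cells meet low oxygen through the transcription factor HIF1, which binds short elements holding ACGTG or GCGTG near its targets, many of them enzymes that process glucose. Of 19 glycolysis genes, 11 fell and 1, the glucose transporter SLC2A3, rose (0.44, lost without any 1 library of run 2; median of the list -0.28), and of 12 hypoxia-response genes 7 fell and 1 rose (median -0.48). PDK1, a kinase that inhibits pyruvate dehydrogenase, held 209 and 208 CPM in untreated cells of run 2, 233 and 236 in run 1 and 166 in run 3. At 24 h it held 103 and 110. PGM1, a phosphoglucomutase, held 56.4 to 65.8 CPM over the 5 untreated libraries and 30.2 and 27.7 at 24 h. Both genes were lower at 24 h than in every untreated library, with changes of -0.97 ± 0.074 (adjusted p = 3.03e-05) and -1.13 ± 0.10 (7.02e-05).

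Several further genes of these lists fell. PFKP, a phosphofructokinase (-0.65 ± 0.080), ENO1, an enolase (-0.58 ± 0.082), SLC2A1, a glucose transporter (-0.67 ± 0.11), and ERO1L, an oxidase of the endoplasmic reticulum (-0.69 ± 0.11), kept their calls without any single library. P4HA1, a collagen prolyl hydroxylase, fell by 0.99 ± 0.075, from 364 and 373 CPM in run 2 to 189 and 181, yet it held 186 and 168 in run 1 and 294 in run 3. PFKFB4, which makes and removes the phosphofructokinase activator fructose-2,6-bisphosphate, fell by 0.98 ± 0.089, from 174 and 170 CPM to 92.4 and 82.1, and held 31.8 and 31.6 in run 1. For these last genes the treated libraries did not lie below all untreated ones. PFKFB4 (adjusted p = 0.422) and PKM2, the pyruvate kinase (-0.71; adjusted p = 0.0662), were not called in a fit of all 14 libraries. NDRG1, a growth-arrest gene on the same hypoxia list, rose by 0.77 ± 0.11, from 40.1 and 40.1 CPM to 69.6 and 67.3. In fits that left out 1 library of run 2, 7 to 8 glycolysis genes and 4 to 5 hypoxia genes fell, in run 2 alone 13 and 7 did, and with no run term 4 and 2. The other runs gave smaller medians for glycolysis, -0.054 at 6 h in run 3 (8 of 19 higher) and -0.083 at 2 h in run 1 (9 of 19 higher), where run 2 had -0.26 at 6 h and -0.30 at 2 h. For the hypoxia list they gave -0.21 (5 of 12 higher) and -0.27 (5 of 12 higher), where run 2 had -0.42 and -0.53.

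The promoters of P4HA1 and PFKFB4 are shown because they hold elements of this kind. Each line gives the 250 bases before the RefSeq start site on the gene's own strand (GRCh38.p14; P4HA1 at chr10:73096867-73097116, minus strand, and PFKFB4 at chr3:48556804-48557053, minus strand), with matches to ACGTG or GCGTG on either strand in capitals, beginning 86 bases before the start in P4HA1 (ACGTG, on the opposite strand) and 166 bases before it in PFKFB4 (GCGTG).
P4HA1: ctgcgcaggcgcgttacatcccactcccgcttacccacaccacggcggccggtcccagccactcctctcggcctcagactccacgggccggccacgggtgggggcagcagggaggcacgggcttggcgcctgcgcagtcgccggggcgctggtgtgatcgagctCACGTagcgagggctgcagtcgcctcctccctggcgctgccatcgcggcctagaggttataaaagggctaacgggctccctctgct
PFKFB4: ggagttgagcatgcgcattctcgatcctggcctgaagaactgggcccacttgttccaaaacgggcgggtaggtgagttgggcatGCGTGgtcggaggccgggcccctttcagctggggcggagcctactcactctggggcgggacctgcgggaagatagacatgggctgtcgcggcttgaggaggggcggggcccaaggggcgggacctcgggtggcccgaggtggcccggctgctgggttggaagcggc
Such short elements are common. Of 8484 promoters matched to the table, over 300 bases each, 65.3% held at least 1 of the pair, as did 13 of the 16 matched promoters of the glycolysis and hypoxia genes that fell.

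Among interferon-stimulated genes there were rises and no falls. Interferon signals through transcription factors that bind an element of 2 GAAA blocks with 2 bases between them near genes of antiviral defence. Of 26 measured genes 12 rose (median 0.45). HERC6, a ubiquitin ligase, held 24.6 and 22.9 CPM in untreated cells of run 2 and 42.7 and 42.0 at 24 h, a change of 0.83 ± 0.11 (adjusted p = 5.47e-04). PARP14, an ADP-ribosyltransferase, went from 39.5 and 41.4 to 67.9 and 64.8 (0.71 ± 0.096), and TRIM22, an antiviral ubiquitin ligase, from 5.55 and 5.83 to 13.1 and 14.1 (1.26 ± 0.19). These 3 were called without any single library. In run 1, however, untreated cells held 50.3 and 48.6 CPM of HERC6, 71.8 and 70.0 of PARP14 and 17.5 and 23.0 of TRIM22, more than at 24 h, and none of the 3 was called in a fit with no run term (adjusted p = 0.657, 0.532 and 0.925).

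IFIH1, a sensor of double-stranded RNA, rose by 0.75 ± 0.14, from 21.3 and 25 CPM to 37.5 and 40.3, with 31.9 and 26 in run 1 and 25 in run 3. IFI6, a mitochondrial protein induced by interferon, held 1.25 to 3.93 CPM over the untreated libraries and 7.07 and 6.15 at 24 h (1.53 ± 0.32). Both stood above all untreated libraries, but IFIH1 lost its call without untreated library A (adjusted p = 0.0718) or 24 h library B of run 2 (0.0597), and IFI6 without untreated A (0.0759), 24 h A (0.0816) or 24 h B (0.0527). With 1 run 2 library left out, 3 to 8 of the list rose, in run 2 alone 17 and with no run term 1. At 6 h the median of the list within run 2 was already 0.30, and 3 members were higher at 24 h than at 6 h. In run 3, which shares no library with run 2, 21 of 26 were higher at 6 h than in its untreated library, and in run 1 12 of 26 were higher at 2 h.

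The promoters of 3 of these genes are shown for the elements they share, again as the 250 bases before the start (GRCh38.p14; PARP14 at chr3:122680589-122680838, plus strand, IFIH1 at chr2:162318685-162318934, minus strand, and IFI6 at chr1:27672193-27672442, minus strand), with capitals for matches to this element on either strand.
PARP14: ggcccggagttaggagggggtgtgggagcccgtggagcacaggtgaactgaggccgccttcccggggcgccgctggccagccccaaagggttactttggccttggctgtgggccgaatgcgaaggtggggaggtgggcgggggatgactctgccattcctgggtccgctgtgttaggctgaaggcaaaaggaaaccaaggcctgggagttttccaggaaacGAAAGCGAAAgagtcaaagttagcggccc
IFIH1: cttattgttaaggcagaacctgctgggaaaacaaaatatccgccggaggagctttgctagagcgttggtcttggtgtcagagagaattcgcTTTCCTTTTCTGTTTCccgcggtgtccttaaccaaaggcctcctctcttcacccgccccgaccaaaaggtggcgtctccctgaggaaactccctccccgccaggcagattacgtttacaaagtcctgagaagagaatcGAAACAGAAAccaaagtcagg
IFI6: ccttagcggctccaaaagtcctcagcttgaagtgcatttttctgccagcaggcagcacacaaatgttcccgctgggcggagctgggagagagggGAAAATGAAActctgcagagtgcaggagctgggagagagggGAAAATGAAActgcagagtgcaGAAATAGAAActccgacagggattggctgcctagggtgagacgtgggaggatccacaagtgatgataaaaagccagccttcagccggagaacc
PARP14 holds 1 match, 29 bases before the start. IFIH1 holds 3, beginning 159, 153 and 21 bases before it, the first 2 of which overlap, and IFI6 holds 3 that begin 156, 115 and 93 bases before the start. Of all 8484 matched promoters 2.72% held the element, against 10 of 20 on the list and 5 of the 9 that rose. Among all genes that rose at 24 h the share was 3.17%, near that of all promoters.

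Genes of mitosis also held rises and no falls. These genes peak late in the cell cycle and are kept off earlier in part through the promoter element TTTGAA, known as CHR. Of 38 measured, 11 rose (median 0.25), among them MKI67, the Ki-67 proliferation marker, with 171 and 168 CPM in untreated cells of run 2, 139, 135 and 167 in the other runs, and 242 and 230 at 24 h (0.48 ± 0.072, adjusted p = 0.00124). CENPA, the centromeric histone H3 variant, rose by 0.92 ± 0.15, from 15.8 and 13.7 CPM to 29.4 and 26.6. SPC25, a kinetochore subunit, rose by 0.71 ± 0.12, from 31.7 and 33.4 to 51.8 and 54.6. In all 3 genes both treated libraries were above every untreated one, as for 17.7% of all genes. The calls held without any single library. The list's median within run 2 was -0.0072 at 2 h and 0.072 at 6 h, and 12 of 38 members were higher at 24 h than at 6 h. Without 1 of the run 2 libraries 3 to 5 rose, in run 2 alone 26 rose and 1 fell, and with no run term 2 rose. In run 3 the median at 6 h was -0.10, with 11 of 38 higher than untreated, and in run 1 at 2 h it was 0.24, with 25 of 38 higher. The element TTTGAA was found in 23 of 31 matched mitosis promoters, against 9.41% of all.

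Of 43 DNA replication genes measured, 8 rose and 1, PCNA, fell (median 0.078, after 0.22 at 2 h and 0.20 at 6 h in run 2), and 6 of 43 were lower at 24 h than at 6 h, against 1 higher. PRIM1, the DNA primase, rose by 0.61 ± 0.089, from 54.4 and 54.7 CPM to 83.7 and 82.8, and RRM2, a subunit of ribonucleotide reductase, by 0.66 ± 0.10, from 47.5 and 51.6 to 82.6 and 73.6. Both were near these levels at 6 h already (80.2 and 82.2, and 73.1 and 77.2). Of 23 E2F factors and G1/S regulators 6 rose and E2F5, a repressive member of the family, fell by 1.22 ± 0.13, from 31 and 31.7 CPM in run 2 (34.7 to 51.5 elsewhere) to 12.7 and 14.3. Without 1 of the run 2 libraries 2 replication genes and 0 to 2 of the E2F group rose, in run 2 alone 16 and 11 did, and in the fit of all 14 libraries 4 and 5. E2F5 fell in each of these fits and PCNA in none that left out a run 2 library.

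Genes of lipid synthesis that were called at 24 h mostly fell. SREBP factors switch on the enzymes of cholesterol and fatty acid synthesis when membranes hold little sterol. Of 28 cholesterol genes 5 fell and none rose (median -0.27), and of 14 fatty acid genes 6 fell and 1 rose (median -0.21). SCD, a fatty acid desaturase, held 117 and 116 CPM in untreated cells of run 2, 147 and 155 at 2 h, 75.7 and 76.7 at 6 h and 74.4 and 62.2 at 24 h. FADS2, another desaturase, held 211 and 208, then 280 and 301, 189 and 195, and 144 and 137. The changes at 24 h were -0.77 ± 0.11 for SCD and -0.58 ± 0.080 for FADS2, and 11 of 28 cholesterol genes were lower at 24 h than at 6 h.

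The other runs, which have no 24 h library, showed the early phase only. The cholesterol median was 1.74 at 2 h in run 1, where 28 of 28 were higher than in untreated cells, and 0.74 at 6 h in run 3, where 27 were. In run 2 it was 0.66 at 2 h and 0.0036 at 6 h. A fit of all 14 libraries, which assumes 1 effect per time in all runs, called none of the 28 cholesterol genes and 2 falls among the fatty acid genes, and SCD (adjusted p = 0.360) and FADS2 (0.499) were not called in it. Without 1 of the run 2 libraries 0 to 1 cholesterol and 2 to 4 fatty acid genes fell, and in run 2 alone 16 and 9 fell. SCD and FADS2 kept their calls without any single library.

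Most genes of protein synthesis did not pass the test, and those that did mostly fell. Of 39 ribosome biogenesis genes 12 fell and none rose (median -0.18). DDX21, a nucleolar helicase, fell by 0.44 ± 0.071, from 259 and 248 CPM in run 2 to 181 and 194, and lost its call without 24 h library A (adjusted p = 0.0582). Within run 2 the list's median was -0.33 at 6 h, lower than at 24 h. Of 20 aminoacyl-tRNA synthetases 6 fell and none rose (median -0.15), among them IARS, for isoleucine, which went from 413 and 420 CPM to 312 and 290 (-0.47 ± 0.071) and kept its call without any single library. Cytosolic ribosomal proteins were split, with 5 of 73 higher and 9 lower by the test (median -0.066). On the ATF4 list of amino acid and serine genes 6 of 22 fell and none rose (median -0.17), led by ALDH1L2, which went from 25.3 and 26.6 CPM to 8.05 and 7.99 (-1.69 ± 0.12), and VLDLR, a lipoprotein receptor (-1.35 ± 0.19). ALDH1L2 held 86.4 and 83.6 CPM in run 1 and 33.7 in run 3. Without 1 of the run 2 libraries 1 to 2 ribosome biogenesis genes, 1 to 2 synthetases, 1 to 2 ribosomal protein genes and 2 genes of the ATF4 list fell. In run 2 alone these counts were 22, 10, 24 and 11, and with no run term 2, 2, 1 and 1. The ATF4 list differed in direction between runs at 6 h and not at 2 h. Its median was 0.41 at 6 h in run 3 (17 of 22 higher) and 0.37 at 2 h in run 1 (16 of 22). In run 2 it was -0.34 at 6 h and 0.11 at 2 h. The synthetases had 0.068 in run 3 (13 of 20 higher) and 0.21 in run 1 (12 of 20), against -0.28 and -0.027, and ribosome biogenesis genes had -0.23 (3 of 39 higher) and -0.16 (14 of 39), against -0.33 and -0.047.

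Genes of blood cell identity changed in both directions. Among 16 genes of myeloid maturation 4 rose and none fell (median 0.29). CD33, a Siglec receptor on myeloid cells, held 30.3 and 25.7 CPM in untreated cells of run 2, 26.7 and 25.4 in run 1 and 30.3 in run 3, and 54.3 and 50.9 at 24 h, above all untreated libraries (0.90 ± 0.12, adjusted p = 5.47e-04). It had held 28.6 and 33.4 at 6 h (24 h against 6 h: 0.76, adjusted p = 3.92e-05). ITGB2 rose by 0.62 ± 0.14 but lost its call without any of the 4 run 2 libraries (adjusted p = 0.0563 without 24 h A to 0.139 without 24 h B), and its span is shared with LOC100505746. VSIG4, a complement receptor of macrophages, rose by 0.94 ± 0.23 and also lost its call without any 1 of them (0.0888 to 0.140). The list had 7 members higher at 24 h than at 6 h. Markers of other blood lineages were nearly all unlisted, and of those listed CSF3R, the granulocyte growth factor receptor, stood at 157 and 158 CPM at 24 h against 157 to 261 in untreated cells, and KLF1, an erythroid factor, fell (-0.86), from 30.8 and 29.5 CPM in run 2 (8.78 to 16.5 elsewhere) to 13.5 and 19.7. EPCAM, an epithelial marker, fell (-0.58), from 26.8 to 33.7 CPM in untreated cells to 17.7 and 19.3 at 24 h.

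Progenitor surface genes were mixed. CD34 rose by 0.73 ± 0.094, from 85.0 and 80.5 CPM in run 2 to 141 and 134, above run 1 (78.0 and 67.2) but below run 3 (216). With no run term 0 genes of this list were called (adjusted p = 0.610 for CD34). CD44, an adhesion receptor, rose by 0.48 ± 0.064, from 237 and 234 to 327 and 330, which is below its untreated level in the other runs (355 to 543), so that a fit with no run term gave a change of the opposite sign (-0.22, not called), and the fit of all 14 libraries did not call it (adjusted p = 0.140). KIT, the stem cell factor receptor, fell slightly, by 0.25 ± 0.050, from 4409.7 and 4331 CPM to 3679.5 and 3689.8. It was lower still at 2 h (2842 and 2742) and 6 h (3307 and 3334), and 24 h exceeded 6 h (0.15, adjusted p = 0.00367). KIT lost its call at 24 h without any 1 library of run 2 (adjusted p = 0.0690 to 0.111), and the step from 6 h without 6 h A (0.106) or 6 h B (0.0703).

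Of 21 haematopoietic transcription factors measured, 5 fell and none rose at 24 h, with a median of 0.016, where the median within run 2 was -0.31 at 2 h and -0.29 at 6 h, and 12 of the 21 were higher at 24 h than at 6 h. Single members differed from the median: TCF3, an E protein, was at -0.20, -0.32 and -0.44 at 2, 6 and 24 h in run 2, and CEBPE, a factor of late granulocyte development, at 0.19, -0.076 and 0.82, where its 24 h change did not pass (adjusted p = 0.0743). RUNX1, the 5′ partner of the fusion gene of this line, held 3862 and 3725 CPM in untreated cells of run 2 and 3207 and 3071 at 24 h (-0.27 ± 0.052). MYB, a factor of progenitor growth, went from 958 and 977 to 735 and 768 (-0.37 ± 0.081). With no run term 0 genes of the list fell, and RUNX1 (adjusted p = 0.229) and MYB (0.931) were not called. The fit of all 14 libraries did not call MYB either (0.0673). MYB lost its call without any 1 library of run 2 (adjusted p = 0.0638 to 0.129) and RUNX1 without 3 of the 4 (0.0622 to 0.0837), and without 1 of the run 2 libraries 0 to 1 of the list fell. Reads of RUNX1 and of the fused allele cannot be told apart over the shared part.

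Of 28 NF-kB and immediate early genes, 3 rose and 5 fell (median -0.053). DUSP6, a phosphatase that limits ERK signalling, rose from 44.2 and 41.1 CPM in run 2 (36.2 to 52.3 elsewhere) to 67.2 and 68.7 (0.67 ± 0.11), with 41.0 and 42.4 at 6 h. EGR1, an immediate early factor, fell from 9.61 and 12.6 CPM to 1.81 and 2.84 (-2.23 ± 0.27), but stood at 1.46 to 4.03 in untreated cells of the other runs and was not called in the fit of all 14 libraries (adjusted p = 0.0934). NFKB2, a subunit of NF-kB, fell from 22.4 and 21.8 to 12.4 and 10.2 (-0.97 ± 0.15) against 10 to 19.6 elsewhere, and was likewise not called there (0.177). Among 15 BCL2 family genes and regulators 5 rose and none fell (median 0.20), led by NOL3, an inhibitor of apoptosis, which held 3.25 to 8.66 CPM over the untreated libraries and 20.0 and 18.8 at 24 h (1.26 ± 0.17). NOL3 was the only one of the 5 to keep its call in all 7 fits without 1 library.

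None of 12 ISWI subunit genes passed the edgeR test with the run as a block, and in run 2 alone 3 rose and 2 fell. Among 28 genes of the other remodeller families (SWI/SNF, CHD, INO80) 2 fell, namely CHD7 (-0.60 ± 0.093; 79.6 and 83.1 CPM to 54.1 and 53.2) and ARID2 (-0.27), and in run 2 alone 13 fell and 1 rose. Of 15 CTCF and cohesin genes 2 rose and 2 fell. STAG1, a cohesin subunit, fell by 0.46 ± 0.070, from 584 and 558 CPM (541 to 730 elsewhere) to 416 and 414, below every untreated library, and CTCF (-0.13) was not called. ARID2 was lost without any 1 of the 4 run 2 libraries, while CHD7 and STAG1 kept their calls without any single library. With no run term CHD7 (adjusted p = 0.0717) and STAG1 (0.0516) were not called, and 0 genes of their lists were. Of 18 core and linker histone genes outside the clusters 6 rose and 3 fell (median 0.14), 9 rose and 3 fell in run 2 alone, and 0 to 1 rose and 0 to 1 fell with a run 2 library left out. Besides TERT, which fell, 3 of 14 telomere genes rose. Of 30 lysosome genes 6 rose and 1 fell, and of 51 respiratory chain genes 4 rose and none fell. With a run 2 library left out, 0 to 1 telomere, 0 to 2 lysosome and 0 to 1 respiratory genes rose, and TERT was the only one of these to keep its call in all 7 fits. Calls in the remaining lists were 7 for the heat shock and unfolded protein response (4 rose and 3 fell of 27), 6 for Polycomb and DNA methylation (2 and 4 of 30), 2 for the proteasome (0 and 2 of 31), 1 for p53 targets (1 and 0 of 15) and 2 for the MYC network (2 and 0 of 11). Each of these calls was lost in at least 1 of the 7 fits without 1 library. With no run term 0 genes of these remaining lists were called.

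**Figure D4:**
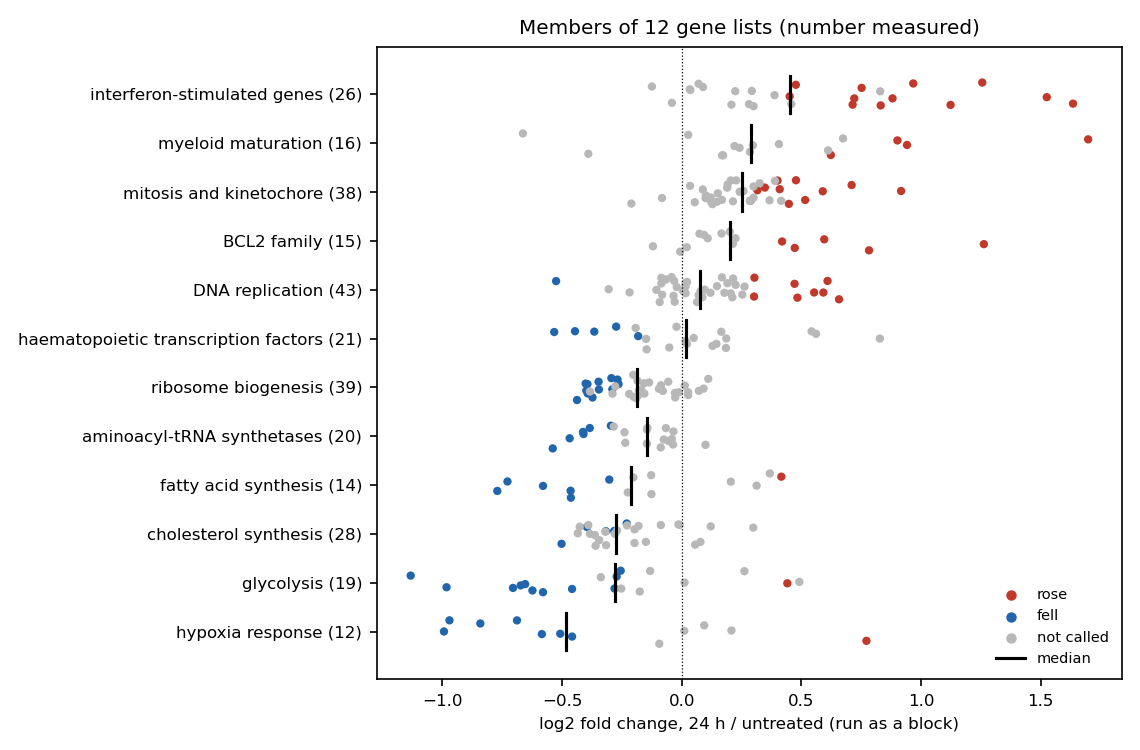
Log2 fold change at 24 h (horizontal axis) of each measured member of 12 gene lists (points, coloured by call; vertical scatter within a row only separates points), with the median as a bar. Interferon-stimulated, myeloid maturation, mitosis and BCL2 family genes hold rises and no falls, and ribosome biogenesis, synthetase and cholesterol genes hold falls and no rises.

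Near promoters, where paused polymerases gather, the same libraries gave few calls. Of 9873 genes tested, 13 rose (0.132%) and 11 fell (0.111%), 24 in all (0.243%), where 1545 had an unadjusted p under 0.05. The count was 768 in run 2 alone and 776 without both untreated libraries of run 1, and it was 0 without any 1 library of run 2 (555 to 1318 genes at an unadjusted p under 0.05). The share of reads near promoters was 14.5% and 15.7% at 24 h, against 19.7% and 20.6% in untreated cells of run 2 and 9.55% to 13% in the other untreated libraries. Scaling promoter-proximal counts by the gene-body totals gave 7 rises and 212 falls. TERT held 46 and 20 promoter-proximal reads in untreated cells of run 2, 29 to 36 in the other untreated libraries, and 1 and 2 at 24 h. GGT7 held 31 and 24, 21 to 50 elsewhere, and 1 and 2. FJX1 went from 164 and 129 reads (52 to 148 elsewhere) to 10 and 13. These 3 genes had both treated libraries far below the untreated ones, as in their gene bodies. CEBPB, a myeloid transcription factor, fell near the promoter (375 and 315 reads in run 2 and 117 to 246 elsewhere, to 25 and 76), whereas its gene body was not called (-0.59, adjusted p = 0.0541).

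The direction near the promoter tended to follow the gene body. Of 1030 risen genes measured there, 69.4% had a higher promoter-proximal value, and of 910 fallen genes 24.3% did, against 51.4% of genes not called. Both regions were counted in the same libraries. The promoter-proximal change differed from the gene-body change for 3 genes (0.0304%; limma, 1389 at an unadjusted p under 0.05), all upward near the promoter. Among them was CLSTN1, a calsyntenin, whose promoter-proximal reads rose from 1 and 1 to 11 and 15 in run 2 while its gene body did not pass (-0.15). In run 2 alone 148 genes differed, and without any 1 library of run 2 the count was 0 (445 to 1236 at an unadjusted p under 0.05).

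Libraries of the other runs offer values that share no sample with run 2, at earlier times. Of the genes called as risen at 24 h, 86.8% were higher at 6 h than untreated within run 3 and 74.1% at 2 h within run 1, where all genes gave 52.1% and 51.4%. Of the fallen genes 90.9% and 74.9% were lower there. Over all genes, the changes at 24 h in run 2 and at 6 h in run 3 had a Spearman correlation of 0.560 across genes, which are not independent of each other, and those of run 1 at 2 h of 0.351. PTPRF changed by -2.56 at 6 h in run 3 and by -3.07 at 2 h in run 1, and TERT by -1.58 and -1.16. PRAM1 (1.09 at 6 h in run 3), LAPTM5 (1.22) and MFAP4 (0.98) were higher. FADS2 (1.08) and SCD (0.72) were higher in run 3 at 6 h although they fell in run 2 at 24 h, as shown in the plot of both runs. In run 2 at 6 h FADS2 was at -0.13 and SCD at -0.61, so for these genes the runs differed at the same time. The cause was not tested. Between 24 h in run 2 and the earlier times of the other runs, run and time differ together, and the part of each cannot be told apart.

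**Figure D5:**
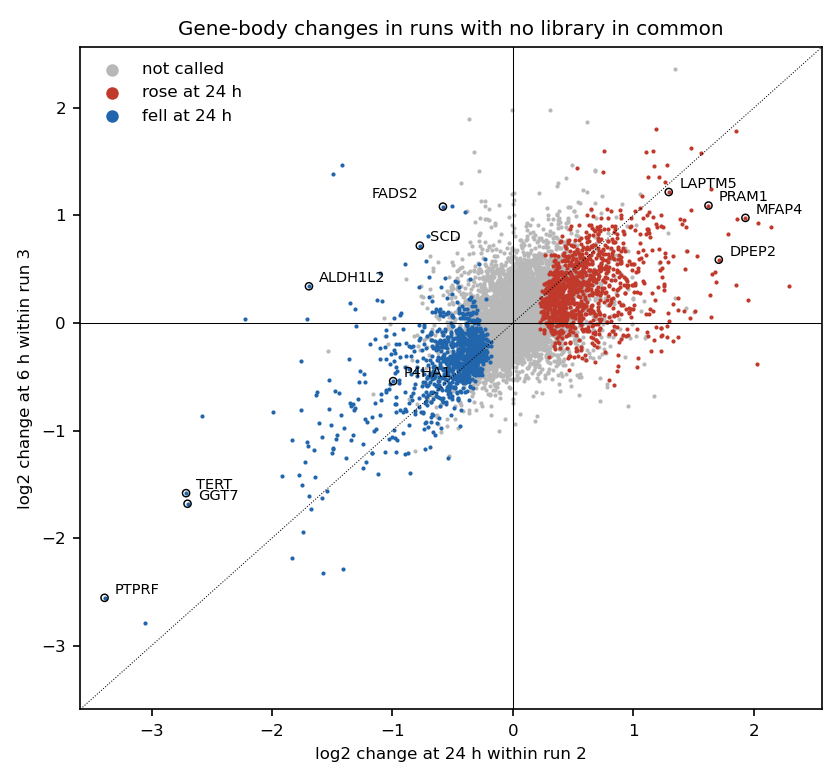
Log2 change of each gene at 24 h within run 2 (horizontal axis) and at 6 h within run 3 (vertical axis), coloured by the call at 24 h, with the dotted line of equal change. PTPRF, TERT and GGT7 are low in both, and FADS2, SCD and ALDH1L2 lie in the upper left, lower at 24 h in run 2 and higher at 6 h in run 3.

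The median listed span was 19.6 kb for genes that rose, 39.2 kb for those that fell and 24.8 kb for all. Under 5 kb, 16% of 1154 genes rose and 3.64% fell (median log2 fold change 0.27), and over 100 kb 8.44% of 1315 rose and 14.7% fell (median -0.049). The same order of medians was present in run 3 at 6 h (0.14 under 5 kb and -0.040 over 100 kb) and in run 1 at 2 h (0.37 and -0.24). In untreated libraries of runs 1 and 3, which the 24 h change does not use, a median of 13.3% of the reads of risen genes and 4.54% of those of fallen genes lay near the promoter, against 10.1% for all. How these properties are tied to the calls was not tested.

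Directions of neighbouring genes were compared without a test. Of 3253 adjacent pairs with a gap of up to 10 kb, both genes were called in 122, and 87 of these (71.3%) shared a direction. Among pairs with both genes called, the share was 60.5% of 43 with overlapping spans, 63.1% of 157 with a gap of 10 to 100 kb and 53.2% of 126 with a larger gap. Both genes were called in 3.75% of the pairs up to 10 kb apart and in 4.24% of those over 100 kb apart. RASL10B and GAS2L2, 990 bases apart, fell by 1.78 and 1.84. SPAG8 and HINT2 rose by 1.47 and 1.45, and ZNRD1 and PPP1R11 by 1.64 and 1.29. Since the counted strand is not given, reads running from 1 gene into the next may enter both counts, and this was not tested. By chromosome the share that rose ranged from 6.67% to 13.8% and the share that fell from 5.13% to 14%. Among promoters, the ETS core CCGGAA was found in 22.7% of fallen, 31.8% of risen and 33.3% of all matched genes.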

How the data were processed

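PRO-seq of Kasumi-1 cells was deposited as tables of raw read counts per transcript for gene bodies and promoter-proximal windows. Per the submitters' processing notes, reads were trimmed with Trimmomatic 0.32 and aligned to hg19 with Bowtie2 2.2.2, and SAMtools, HOMER, DESeq and DESeq2 were also named. For the counting tool, the windows and the strand nothing is given in the sources used here. The tables also hold the authors' deposited log2 fold changes and adjusted p-values of DESeq2. There, 2300 genes of the authors' deposited table had an adjusted p under 0.05, of which 1648 were called here in the same direction and 0 in the opposite one. The authors' 28 normalized columns were not used, and the parental samples were not analysed here.

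The counts were scaled by TMM and tested with edgeR 4.0.16 (R 4.3.3; quasi-likelihood F test, Benjamini-Hochberg adjustment over all genes tested), with the run as a block, 5 untreated and 2 treated libraries and 3 residual degrees of freedom. CPM values are scaled over 14 libraries and not by length, so levels are not compared between genes. The 24 h against 6 h test used run 2 at 4 times. The promoter-proximal minus gene-body change was tested with limma 3.58.1 on log2 CPM with a prior count of 2. Alternatives included DESeq2 1.42.0, other scaling, filters and libraries. Scripts were tested on simulated data. Of 10304 transcripts, 18 symbols had more than 1, and 1 was kept for each symbol. Sequences come from RefSeq (GRCh38.p14) and matched 8484 of 10286 symbols, 8259 of them by accession.

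Named genes were the 12 largest rises and falls (mean normalized count 100 or more) that were also called in run 2 alone, the 6 largest in each direction that also differed from 6 h, the 5 with the smallest adjusted p in each direction, up to 4 members of each list and others needed to describe it, promoter-proximal calls and overlapping genes. Genes and lists were chosen with earlier results of these data known. Results for some genes are not reported here.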

Additional observations from a re-analysis of the deposited data

Results flagged for a closer look

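Among 91 sets of 5 untreated values checked, 5 held a library far from the rest by Dixon's criterion, which chance gives in about 1 in 20 sets. These were ACTL8 at 118 CPM, SFXN1 at 102, CD34 at 216 and CSF3R at 261, each in run 3, and PFKP at 363 in library A of run 1. The 24 h levels of ACTL8, SFXN1 and PFKP lay below all 5 untreated libraries, and those of CD34 below the run 3 value, and CSF3R was not called.

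Changes at 24 h differed from those at 6 h in run 2 for 635 genes that were higher and 320 that were lower (edgeR, 24 h against 6 h). Of the genes whose levels are described or whose changes are given, 34 differed, 31 of them in the direction of their change from untreated cells. Some of these genes were named because both changes passed in the same direction, and both tests share the 24 h libraries. Part of this agreement is therefore built in. Lower at 24 h than at 6 h were LOC254896 (log2 difference -1.14), C7orf31 (-1.01), OGDHL (-0.83), VLDLR (-0.69), TERT (-0.63), ALDH1L2 (-0.53), LOC283335 (-0.52), FADS2 (-0.45), P4HA1 (-0.38), SFXN1 (-0.29), STAG1 (-0.24) and PFKFB4 (-0.23). Higher were DPEP2 (1.31), PRAM1 (0.87), LOC100505746 (0.82), CD33 (0.76), MFAP4 (0.74), DUSP6 (0.70), ADAM12 (0.68), VSIG4 (0.65), PLXNA4 (0.61), ITGB2 (0.60), CD44 (0.58), SASH3 (0.50), SLC2A3 (0.49), LAPTM5 (0.47), CD34 (0.46), NDRG1 (0.41), CENPA (0.37), MKI67 (0.36) and DNAJC1 (0.33). The opposite direction was found for SLC2A1 (0.23), ENO1 (0.16) and KIT (0.15), which stood below untreated cells and above their 6 h level. The difference kept its call without each of the 8 libraries for C7orf31, DPEP2, PRAM1, DNAJC1, ADAM12, PLXNA4, P4HA1, FADS2, MKI67, CD34, CD44, CD33, ITGB2 and DUSP6. The other genes lost it without at least 1 library. STAG1 lost it without 6 h library A (adjusted p = 0.0512) and NDRG1 without 6 h library B (0.0534).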

How the results depend on the processing

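No paired analysis was possible because the columns do not carry the replicate numbers of the labels. They carry a letter of unstated meaning, and a fit with that letter as a term in run 2 called 4468 genes. The 2053 gene-body calls became 351 with no run term, 4639 in run 2 alone, 4457 in run 2 at 4 times, 865 at an adjusted p under 0.01 and 761 with a minimum fold of 1.5. They ranged from 477 to 4638 without 1 library, and leaving out one of run 2 leaves a lone sample that is assumed to vary like the others. Further fits gave 1808 (DESeq2), 1920 (mean count of at least 100), 2048 (all 14 libraries) and 2068 (DESeq2 size factors). Run 2 alone gave 3032 with DESeq2 and 3466 to 4430 without 1 library. The 955 differences from 6 h became 600 with DESeq2 and 192 to 1647 without 1 library. The 24 promoter-proximal calls became 8 with no run term, 122 with DESeq2, 219 with gene-body scaling and 0 to 782 without 1 library. The 3 differences between regions became 148 in run 2 alone and 0 to 154 without 1 library. Chosen after seeing the data were a fit without the untreated pair of run 1 (4646 gene-body and 776 promoter-proximal calls), run 2 alone near promoters (768), DESeq2 on 14 libraries (2300) and the counts of list members under other settings. Of 146 named called genes, 146 kept their call in run 2 alone, 140 with DESeq2, 117 with 14 libraries, 81 to 85 without 1 library of run 2 and 40 with no run term. The count in run 2 alone was nearly fixed in advance. The run block takes its fold changes from run 2, and the largest rises and falls had to be called there to be named. The sign turned for FDFT1 with 14 libraries (0.043, and 0.034 with DESeq2) and with no run term for CD44 (-0.22), FLT3 (-0.17), H3F3A (-0.14), HSP90AA1 (0.037) and TAL1 (0.076). The cause was not tested. With 2 libraries at 24 h, both in 1 run, small changes and any effect of the run shared with its untreated libraries are limited by this design.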
